A study of Danio rerio with 12 samples.

Results

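The 10 genes examined here are cell cycle genes that a circadian clock can time, and they were listed by symbol. They are the inhibitors of cyclin-dependent kinases cdkn1a and cdkn1d, the mitotic entry kinase wee1, and the proliferation genes ccna2, ccnb1, cdk1, mki67, pcna, top2a and plk1. Of these 10 symbols, 9 were matched to an Ensembl identifier among the 31261 genes counted in each library, and all 9 were tested in every comparison. The symbol cdkn1d was not matched to an identifier and was not analysed here. The RNA-seq libraries were made from whole zebrafish larvae at 6 days post fertilization (dpf) in the light without treatment, with 3 libraries of each of 4 lines and about 30 pooled larvae a library. The lines were the double knock-out of panx1a and panx1b (DKO), panx1b-/-, panx1a-/- and the Tupfel long fin wild type (TL). Pannexins form channels in the cell membrane, and panx1a and panx1b are the zebrafish copies of PANX1. Loss of panx1b was read from the panx1b-null lines, DKO and panx1b-/-, against the other 2 lines, panx1a-/- and TL.

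The panx1b-/- line carried a TALEN-induced frameshifting deletion in a coding exon and came from a single founder. Each genotype was a single line, so the genotype and any difference between lines in rearing, hour of collection or stage cannot be told apart. The hour of collection was not given in the sources used here. Each library averaged all tissues of its larvae, so fewer dividing cells and less of a transcript per dividing cell cannot be told apart.

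Entry into mitosis is driven by CDK1 bound to cyclin B, which the kinase Wee1 holds inactive until phosphatases of the Cdc25 family release it. Before that, DNA is copied in S phase with PCNA as the sliding clamp of the polymerases, and p21, the product of cdkn1a, can stop the cycle by binding cyclin-dependent kinases or PCNA. In zebrafish, S phase and mitosis of larval cells are timed to the day-night cycle, and cdkn1a, cdkn1d and wee1 are known there as links between the clock and the cycle.

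Depth was 20581029 to 29259122 counts a library, and every pair of libraries within a line differed by more than sampling noise. Chi-square per degree of freedom was 2.84 for DKO replicates 2 and 3, the most alike, and between 10.2 and 24.6 for the other pairs. The panx1 copies share 1 symbol, PANX1, and were not told apart by name. PANX1 (ENSDARG00000025285) had 88 to 98 counts in DKO and 82 to 123 in panx1a-/-, against 200 to 224 in panx1b-/- and 249 to 399 in TL. PANX1 (ENSDARG00000014910) had 79 to 107 counts in DKO, 128 to 163 in panx1b-/-, 160 to 226 in panx1a-/- and 123 to 154 in TL, with DKO lowest. Under edgeR's quasi-likelihood test, ENSDARG00000025285 had a log2 fold change of −1.39 in DKO and panx1a-/- against the other 2 lines (adjusted p = 6.24e-08). That of ENSDARG00000014910 was 0.15 in panx1b-/- against TL (adjusted p = 0.644) and −1.01 in DKO against panx1a-/- (adjusted p = 9.59e-04). By RT-qPCR the paper detected no significant loss of panx1b mRNA in panx1b-/- larvae. With the copies not assigned here, these counts do not check the panx1b-/- label. Of 22 markers of larval tissues matched, hbaa1 was at 0 counts in at least 1 library of each line and the others were counted in every library.

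The inhibitor cdkn1a was lower in the panx1b-null lines, by 0.59 on the log2 scale. Of the 8 other genes, 7 were not called in the panx1b-null lines, and pcna was higher there by 0.49, with overlapping libraries. The rise of pcna was called in DKO against panx1a-/- (0.92) and not in panx1b-/- against TL (0.06). Of all genes tested, 3.47% rose and 5.21% fell in the panx1b-null lines. In the panx1a-null lines, 7 of the 8 other genes fell, beside 6.29% of all genes tested. Rose and fell are used for genes that edgeR's quasi-likelihood test placed under 0.05 after Benjamini-Hochberg adjustment and under 0.001 before it, which are called the cut-offs.

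The inhibitor cdkn1a (ENSDARG00000076554) had 12.7, 13.4 and 13.1 CPM (the usual unit of counts relative to library size, here after TMM normalization) in the DKO libraries and 10.5, 11.2 and 9.46 CPM in the panx1b-/- libraries. It had 25.2, 13.7 and 17.99 CPM in the panx1a-/- libraries and 17.2, 14.4 and 17.1 CPM in the TL libraries. All 6 panx1b-null libraries lay below all 6 others, with the smallest gap between DKO replicate 2 and panx1a-/- replicate 2. Line means were 13.1 ± 0.352 CPM in DKO, 10.4 ± 0.887 CPM in panx1b-/-, 19.0 ± 5.81 CPM in panx1a-/- and 16.2 ± 1.603 CPM in TL (SD, n = 3 each). TL and panx1a-/- were next to each other at the upper end with overlapping libraries, and were not tested against each other. The DKO libraries (lowest 12.7 CPM) lay above the panx1b-/- libraries (highest 11.2 CPM).

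Across the 12 libraries, cdkn1a fell in the panx1b-null lines by 0.59 on the log2 scale (standard error, SE, 0.12, 95% confidence interval −0.84 to −0.34, adjusted p = 0.00332), 0.665 times the level of the other 2 lines. Of the 9 cell cycle genes, 2 passed both cut-offs in this comparison, where 8.68% of the 24261 genes tested did (3.47% higher and 5.21% lower). Lack of overlap with all null libraries lower was found for 1 of the 9, and for 2.23% of the genes tested. The call for cdkn1a held without each of the 12 libraries, with log2 fold changes between −0.68 and −0.45.

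By background, cdkn1a fell in panx1b-/- against TL (log2 fold change −0.64, SE 0.12, adjusted p = 0.007), where 5.96% of the 24860 genes tested were called (2.8% higher and 3.16% lower) and 15% showed no overlap with the knock-out lower. In DKO against panx1a-/- its log2 fold change was −0.53 (SE 0.17, adjusted p = 0.0648), without overlap but short of the cut-offs, where 6.34% of 24966 genes were called (2.58% higher and 3.76% lower) and 15.8% showed no overlap with DKO lower. These comparisons share no library. The difference between them was 0.11 on the log2 scale (95% confidence interval −0.39 to 0.62, adjusted p = 0.821). The call against TL was lost without TL replicate 1 or 3 and without panx1b-/- replicate 1 or 3, and with all 12 libraries in one fit. Its value was between −0.72 and −0.58 over the 6 fits without a library. In DKO against panx1a-/- it passed the cut-offs without panx1a-/- replicate 2.

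**Figure D1:**
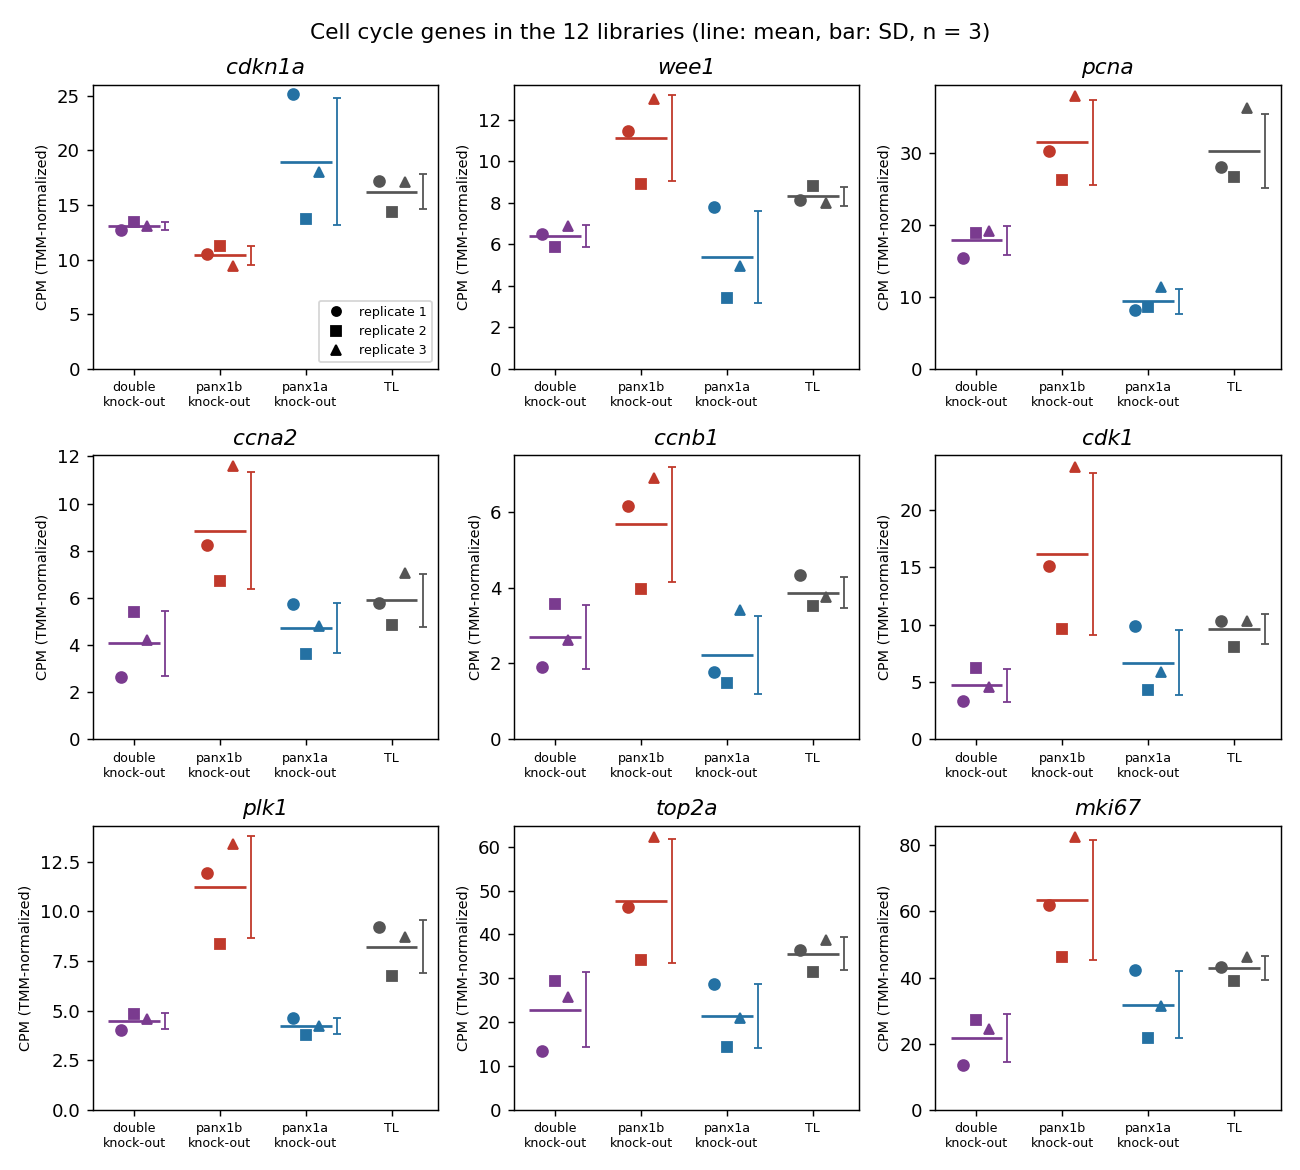
TMM-normalized CPM of the 9 cell cycle genes on the y axis (each from 0) in the DKO, panx1b-/-, panx1a-/- and TL libraries, with a symbol for each replicate, a line for the mean and a bar for the SD (n = 3). The 6 panx1b-null libraries lie below the other 6 for cdkn1a (highest 13.4 against lowest 13.7 CPM), and the DKO and panx1a-/- libraries lie below the other 6 for pcna, plk1, top2a and wee1.

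The kinase wee1 (ENSDARG00000093864) had 6.52, 5.85 and 6.88 CPM in DKO and 11.5, 8.91 and 13.0 CPM in panx1b-/-. It had 7.81, 3.40 and 4.98 CPM in panx1a-/- and 8.15, 8.83 and 7.97 CPM in TL. The panx1b-/- libraries were the highest of all, and they did not overlap TL, which holds with the knock-out higher for 14.7% of genes in that comparison. For the panx1b-null lines the log2 fold change of wee1 was 0.34 (95% confidence interval 0.01 to 0.67, adjusted p = 0.149), and it was not called. It was 0.43 against TL (adjusted p = 0.106) and 0.27 in DKO against panx1a-/- (adjusted p = 0.509). Without panx1a-/- replicate 1, the highest panx1a-/- library for wee1, it passed both cut-offs in the 12-library comparison with a log2 fold change of 0.53.

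The sliding clamp gene pcna (ENSDARG00000054155) had 15.5, 18.9 and 19.2 CPM in DKO and 30.3, 26.3 and 38.005 CPM in panx1b-/-. It had 8.18, 8.60 and 11.4 CPM in panx1a-/- and 28.2, 26.6 and 36.3 CPM in TL. The lines fell into 3 levels, with panx1b-/- and TL together at the top, DKO between and panx1a-/- lowest, each level without overlap with the next. In the panx1b-null lines pcna rose with a log2 fold change of 0.49 (95% confidence interval 0.25 to 0.73, adjusted p = 0.00840), although the null and the other libraries overlapped.

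By background, pcna was called in DKO but not in panx1b-/-. In DKO against panx1a-/- it rose by 0.92 on the log2 scale (SE 0.14, adjusted p = 0.00114), the only call among the 9 genes there, without overlap, as for 15.4% of genes with DKO higher. In panx1b-/- against TL the log2 fold change was 0.06 (95% confidence interval −0.27 to 0.40, adjusted p = 0.846). The difference between the backgrounds was 0.87 (SE 0.23, adjusted p = 0.0258), over the cut-off of 0.001 before adjustment. It passed under DESeq2 (adjusted p = 0.0072), without a minimum count, and without panx1a-/- replicate 3 or panx1b-/- replicate 3. In the 12-library comparison the call for pcna was lost without any single one of TL replicates 1 and 2, panx1a-/- replicates 1 and 2, panx1b-/- replicates 1 and 3, and DKO replicates 2 and 3 (0.42 to 0.59 over the 12 such fits), and it was also lost when the 6 null libraries were set against the other 6 with no term for the line (0.31, adjusted p = 0.666).

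Among the mitotic genes, cdk1 (ENSDARG00000087554), the kinase that drives mitotic entry, had 3.33, 6.22 and 4.57 CPM in DKO and 15.1, 9.67 and 23.8 CPM in panx1b-/-. It had 9.88, 4.34 and 5.88 CPM in panx1a-/- and 10.4, 8.08 and 10.4 CPM in TL. The lowest panx1b-/- value lay within the TL range. mki67 (ENSDARG00000091150), whose protein Ki-67 coats mitotic chromosomes and marks cycling cells, had 13.5, 27.3 and 24.4 CPM in DKO and 62.1, 46.2 and 82.4 CPM in panx1b-/-, with 42.2, 21.8 and 31.4 CPM in panx1a-/- and 43.2, 39.0 and 46.4 CPM in TL. As for cdk1, panx1b-/- replicate 3 was the highest and DKO replicate 1 the lowest of the 12 libraries.

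The cyclins reached the lowest counts of the 9 genes, down to 38. ccna2 (ENSDARG00000011094), the cyclin of S phase and early mitosis, ranged from 2.63 to 5.38 CPM in DKO, 6.73 to 11.6 in panx1b-/-, 3.63 to 5.74 in panx1a-/- and 4.84 to 7.07 in TL. ccnb1 (ENSDARG00000051923), the partner of CDK1 at mitotic entry, ranged from 1.90 to 3.57 CPM in DKO, 3.96 to 6.89 in panx1b-/-, 1.48 to 3.41 in panx1a-/- and 3.52 to 4.32 in TL. Both were highest in panx1b-/- replicate 3.

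plk1 (ENSDARG00000058471), a kinase of mitotic entry and spindle assembly, had a level in the panx1a-null lines that stayed below both others. It ranged from 4.02 to 4.83 CPM in DKO, 8.37 to 13.4 in panx1b-/-, 3.79 to 4.61 in panx1a-/- and 6.72 to 9.23 in TL. top2a (ENSDARG00000024488), the topoisomerase that separates replicated chromosomes, ranged from 13.3 to 29.5 CPM in DKO, 34.2 to 62.3 in panx1b-/-, 14.3 to 28.8 in panx1a-/- and 31.4 to 38.8 in TL. For both genes panx1b-/- and TL overlapped, DKO and panx1a-/- overlapped, and panx1b-/- and TL stayed above the other 2 lines.

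In the panx1b-null lines, the 8 genes other than cdkn1a had log2 fold changes between 0.01 (mki67) and 0.49 (pcna) with a median of 0.27, beside a median of 0.00 over all genes tested. Apart from pcna none passed both cut-offs. wee1 and plk1 had an unadjusted p-value under 0.05, and DESeq2 called pcna and no other gene higher. For mki67 the 95% confidence interval was −0.37 to 0.39 and for cdk1 −0.35 to 0.61. The sign for mki67 turned without any single one of TL replicate 2, panx1a-/- replicate 2, panx1b-/- replicate 3 and DKO replicates 2 and 3 (down to −0.095), and that for cdk1 without panx1b-/- replicate 3 (−0.055).

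Against TL alone, all 8 genes had positive values in panx1b-/-, from 0.06 (pcna) to 0.76 (cdk1), with a median of 0.51 beside 0.01 over all genes tested. Of the 8, 7 had an unadjusted p-value under 0.05 and 0 passed both cut-offs in edgeR or in DESeq2. The log2 fold change was 0.76 for cdk1 (95% confidence interval 0.19 to 1.34, adjusted p = 0.0904) and 0.58 for mki67 (0.20 to 0.96, adjusted p = 0.0559). Without panx1b-/- replicate 2, mki67 and cdk1 passed both cut-offs (log2 fold changes 0.77 and 1.03).

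In DKO against panx1a-/-, 5 of the 8 had positive and 3 negative values, with a median of 0.10 beside 0.00 over all genes. The value was −0.54 for mki67 (95% confidence interval −1.07 to −0.02, adjusted p = 0.166) and −0.49 for cdk1 (−1.10 to 0.11, adjusted p = 0.276), opposite in sign to the values against TL. The difference of the panx1b effect between backgrounds was −1.11 for mki67 (95% confidence interval −1.87 to −0.36, adjusted p = 0.0644), −1.25 for cdk1 (−2.21 to −0.29, adjusted p = 0.103) and −0.79 for ccna2 (−1.55 to −0.02, adjusted p = 0.201). None of the 9 genes passed both cut-offs for this difference in edgeR, where 5.33% of genes did. 4 of the 9, these 3 and pcna, had an unadjusted p-value under 0.05.

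**Figure D2:**
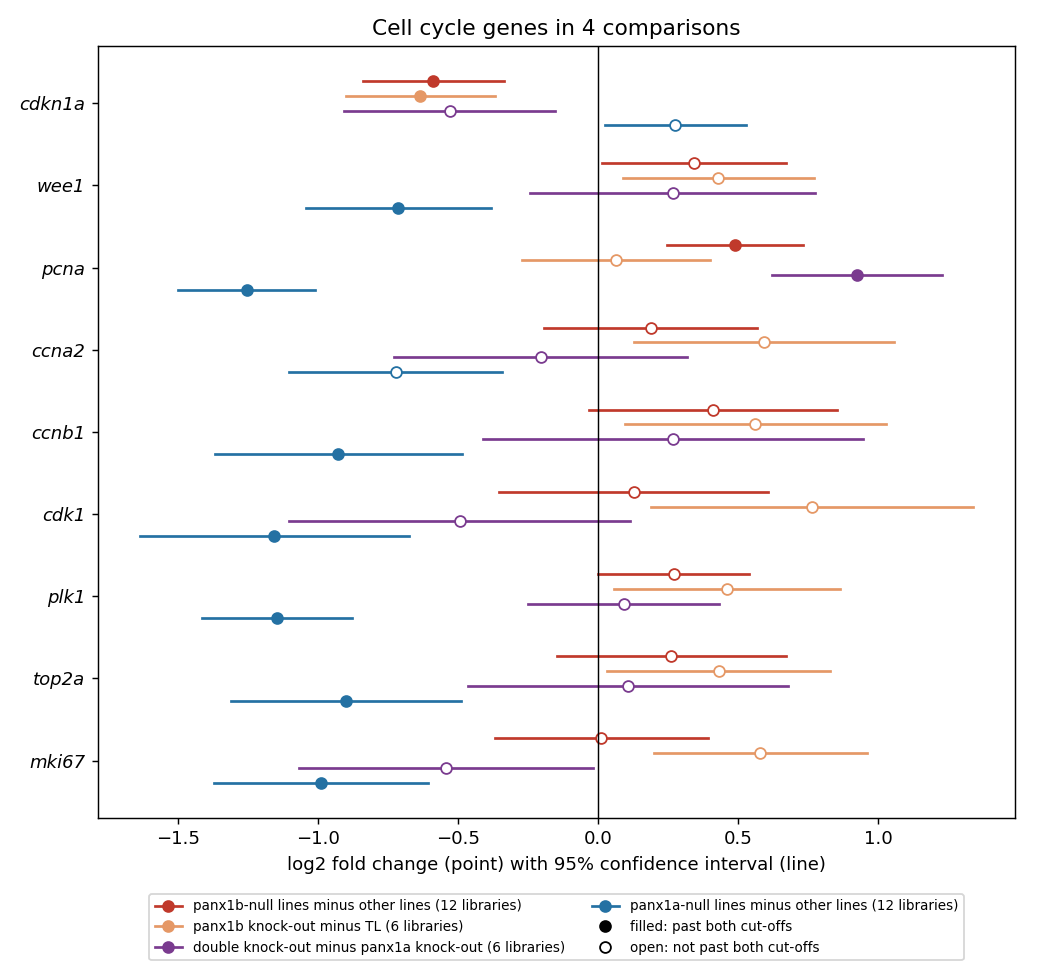
Log2 fold change (x axis) of the 9 cell cycle genes (rows) in 4 comparisons, with the 95% confidence interval as a line and filled points for genes past both cut-offs. For cdkn1a the 3 panx1b comparisons lie between −0.64 and −0.53 and the panx1a comparison at 0.28, while the other 8 genes lie between −1.26 and −0.71 in the panx1a comparison.

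The lines were also compared by the loss of panx1a. In the panx1a-null lines (DKO and panx1a-/-) against panx1b-/- and TL, 7 of the 9 genes fell and 0 rose, where 6.29% of the genes tested fell and 4.44% rose (10.7% in all). These 7 were pcna (log2 fold change −1.26, SE 0.11), cdk1 (−1.16, SE 0.23), plk1 (−1.15, SE 0.13), mki67 (−0.99, SE 0.18), ccnb1 (−0.93, SE 0.21), top2a (−0.90, SE 0.19) and wee1 (−0.71, SE 0.15), with adjusted p-values from edgeR's quasi-likelihood test between 2.29e-06 and 0.00506. ccna2 had −0.72 (adjusted p = 0.00968), over the cut-off of 0.001 before adjustment, and DESeq2 called it lower. cdkn1a had 0.28 (adjusted p = 0.116), the 1 gene of the 9 that was higher at an unadjusted p-value under 0.05, and DESeq2 called 0 higher. Within each panx1b background this comparison was not tested. Mean mki67 was 21.7 CPM in DKO and 63.6 in panx1b-/-, against 31.8 in panx1a-/- and 42.9 in TL. Mean cdk1 was 4.71 and 16.2 CPM, against 6.70 and 9.60, and panx1a-/- and TL overlapped for both genes. For pcna the gap was larger in the other pair, with 17.9 and 31.6 CPM against 9.39 and 30.4.

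The 6 panx1a-null libraries lay below the 6 others for pcna, plk1, top2a and wee1, 4 of the 9 genes, as for 3.22% of all genes tested. The median over the 8 genes other than cdkn1a was −0.96, beside 0.00 over all genes. The number of genes that fell was 4 without panx1b-/- replicate 3 and 5 without TL replicate 3 or panx1a-/- replicate 3, and between 6 and 8 without each of the other 9 libraries. Across all 12 such fits pcna, cdk1, plk1 and mki67 fell every time. The call was lost for top2a without TL, panx1a-/- or panx1b-/- replicate 3, for wee1 without panx1a-/- replicate 3, panx1b-/- replicate 3 or DKO replicate 2, and for ccnb1 without TL, panx1b-/- or DKO replicate 1 or 3 or panx1a-/- replicate 1 or 2. ccna2 was called without replicate 2 of TL, panx1b-/- or DKO and without panx1a-/- replicate 1.

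The levels of the 8 genes also varied together between pools of the same line. panx1b-/- replicate 3 was the highest of its line for all 8 and replicate 2 the lowest for all 8. DKO replicate 1 was the lowest of its line for 7 of 8, and panx1a-/- replicate 2 and TL replicate 2 were the lowest for 7 of 8 each. In the list of G2 and mitosis genes outside the 9, panx1b-/- replicate 3 was the highest of its line for 57 of 66 and DKO replicate 1 the lowest for 59 of 66.

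Over the 12 libraries, the genes whose log2 CPM was most like that of cdk1 among 20014 ranked genes were LMNB2 (Pearson's r 0.985), KPNA2 (0.981), mki67 (0.979), NCAPD2 (0.978) and PRC1 (ENSDARG00000005993, 0.977). LMNB2 encodes a nuclear lamin, KPNA2 an importin, NCAPD2 a condensin subunit and PRC1 a protein of the spindle midzone. Of the 9 genes, ccna2 had an r of 0.964, top2a 0.938, plk1 0.901, wee1 0.811, ccnb1 0.790, pcna 0.621 and cdkn1a −0.217. With the mean of each line taken out, r was 0.913, 0.933, 0.861, 0.706, 0.563, 0.467 and 0.473 in the same order. The sign for cdkn1a was thus positive within lines. The libraries of a line share its genotype and rearing, and the correlations are a description.

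The rest of the cycle was read from lists of genes. Shares of all genes are given for genes past both cut-offs in edgeR. Counts at an unadjusted p-value under 0.05 and in DESeq2 have no such share beside them, and cannot be read against all genes. The G2 and mitosis list, which holds none of the 9 genes, had 66 genes tested, and in the panx1b-null lines 2 rose and 0 fell, with a median of 0.13 (9 higher and 0 lower at an unadjusted p-value under 0.05, 3 higher and 0 lower in DESeq2). The 2 that rose were 3.03% of the list, near the 3.47% of all genes tested that rose. They were ndc80, a kinetochore gene (log2 fold change 0.66, adjusted p = 0.00920), and mastl, the Greatwall kinase that protects CDK1 substrates from dephosphorylation (0.47, adjusted p = 0.0109). The count was 0 without TL replicate 1 or 2, panx1a-/- replicate 2 or 3, panx1b-/- replicate 1 or 3, and DKO replicate 2 or 3, it was 1 without TL replicate 3 and 4 without DKO replicate 1, and the null and other libraries overlapped for both genes. Against TL, 65 of the 66 genes had positive values in panx1b-/-, with a median of 0.40, and 2 rose and 0 fell (32 higher and 0 lower at an unadjusted p-value under 0.05, 6 and 0 in DESeq2), with 12 called higher without panx1b-/- replicate 2 and 1 without panx1b-/- replicate 1 or 3. With all libraries, the 2 that rose were 3.03% of the list, near the 2.8% of all genes tested there. In DKO against panx1a-/-, 43 of the 66 had negative values, with a median of −0.08, and 0 passed both cut-offs (1 higher and 3 lower at an unadjusted p-value under 0.05, 0 in DESeq2). The difference of the panx1b effect between backgrounds was negative for 57 of the 66, with a median of −0.59 (0 higher and 18 lower at an unadjusted p-value under 0.05). In the panx1a-null lines 41 of 66 fell and 0 rose, with a median of −0.78 (57 lower and 0 higher at an unadjusted p-value under 0.05, 45 and 0 in DESeq2). These 41 were 62.1% of the list, beside 6.29% of all genes tested. Within each panx1b background the loss of panx1a was not tested for this list or those below.

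The S phase and replication list had 49 genes tested, none of the 9 among them. In the panx1b-null lines 1 rose and 1 fell, with a median of −0.03. Each was 2.04% of the list, under the 3.47% of all genes tested that rose and the 5.21% that fell. dbf4, the activator of the kinase that fires replication origins, had 0.39 (adjusted p = 0.0111), and MCM7, a subunit of the replicative helicase, had −0.26 (adjusted p = 0.00817). The count of genes that rose was 1 without panx1a-/- replicate 2 and 0 without each of the other 11 libraries, and the count of genes that fell was 1 without panx1a-/- replicate 3, panx1b-/- replicate 1 or DKO replicate 1 and 0 without each of the other 9. By background, 35 of the 49 had positive values in panx1b-/- against TL, with a median of 0.15. There 1 rose and 1 fell (2.04% each, beside 2.8% and 3.16% of all genes tested). In DKO against panx1a-/-, 34 of the 49 had negative values, with a median of −0.17, and 0 were called. At an unadjusted p-value under 0.05, 1 was higher and 9 were lower there, with 0 and 2 in DESeq2. Without panx1a-/- replicate 2, 9 of the 49 were called lower. The difference between backgrounds was negative for 39 of the 49, with a median of −0.24. Of the 49, 28 fell in the panx1a-null lines and 0 rose, with a median of −0.68 (44 lower and 0 higher at an unadjusted p-value under 0.05, 31 and 0 in DESeq2). These 28 were 57.1% of the list, beside 6.29% of all genes tested. The G2 and mitosis count was 24 without TL replicate 3 and 27 without panx1b-/- replicate 3, and the S phase count was between 24 and 30 without each library in turn.

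**Figure D3:**
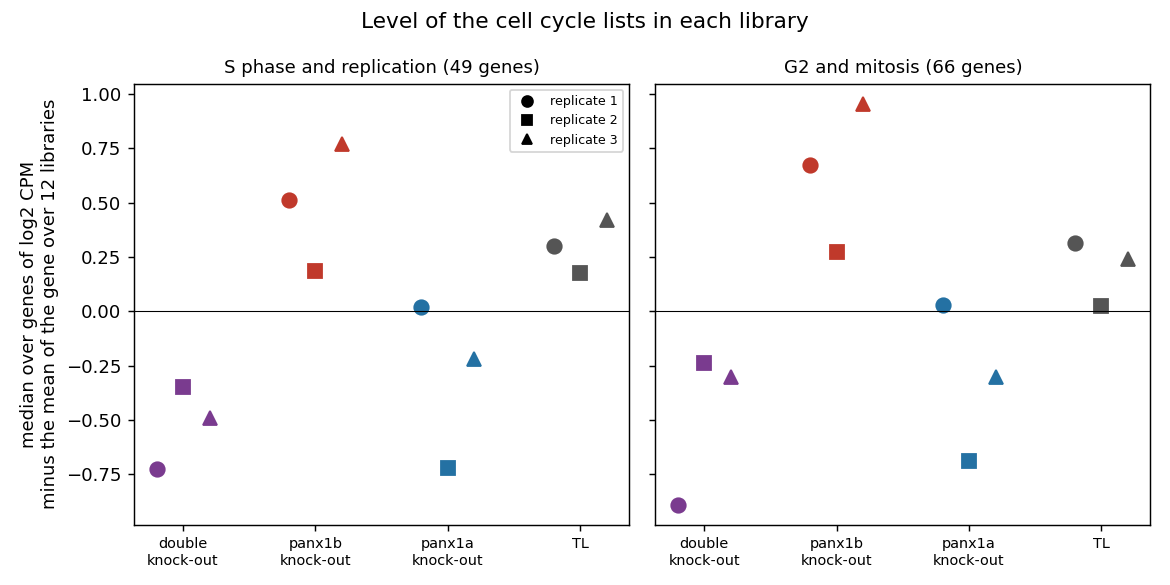
Median over the genes of a list (y axis) of log2 CPM less the mean of the gene over the 12 libraries, by line and replicate (x axis), for the S phase and the G2 and mitosis lists. For the S phase list the DKO and panx1a-/- libraries lie between −0.73 and 0.02 and the panx1b-/- and TL libraries between 0.18 and 0.77. For G2 and mitosis DKO replicate 1 is lowest (−0.89) and panx1b-/- replicate 3 highest (0.96), and panx1a-/- replicate 1 (0.031) lies above TL replicate 2 (0.025).

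Regulators of the G1 step and of CDK1 were listed apart. The list of G1 cyclin, RB and E2F genes had 23 genes tested, the Myc genes MYC (ENSDARG00000007241) and mych among them. In the panx1b-null lines 0 of the 23 passed both cut-offs (3 lower and 0 higher at an unadjusted p-value under 0.05, 0 in DESeq2), with a median of −0.04. Of these 23 genes, 4 fell and 0 rose in the panx1a-null lines (9 lower and 1 higher at an unadjusted p-value under 0.05, 5 and 0 in DESeq2), with a median of −0.22. The 4 that fell were 17.4% of the list, beside 6.29% of all genes tested. They were E2F1 (−0.97), e2f3 (−0.76), CCND2 (ENSDARG00000070408, −0.75) and E2F4 (−0.30), named after their values were seen. Of the 8 kinases and phosphatases of the CDK1 switch, wee1 among them, 0 passed in the panx1b-null lines (3 higher and 1 lower at an unadjusted p-value under 0.05, 0 in DESeq2), with a median of 0.11. In the panx1a-null lines wee1 and the checkpoint kinase gene chek2 (−1.29, adjusted p = 7.48e-04) fell, and 0 rose (4 lower and 0 higher at an unadjusted p-value under 0.05, 2 and 0 in DESeq2). These 2 were 25% of that list, beside 6.29% of all genes tested. Of the 10 inhibitors of cyclin-dependent kinases tested, cdkn1a was the 1 that fell in the panx1b-null lines and 0 rose (2 lower and 1 higher at an unadjusted p-value under 0.05, 1 and 0 in DESeq2), with a median of −0.02. That 1 gene was 10% of the list, beside 5.21% of all genes tested that fell in these lines. The log2 fold changes of the other 9 inhibitors there ranged from −0.89 for cdkn1cb, which averaged 0.308 CPM over the 12 libraries (adjusted p = 0.0758), to 0.49 for CDKN3 (adjusted p = 0.0548), both named after their values were seen.

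**Figure D4:**
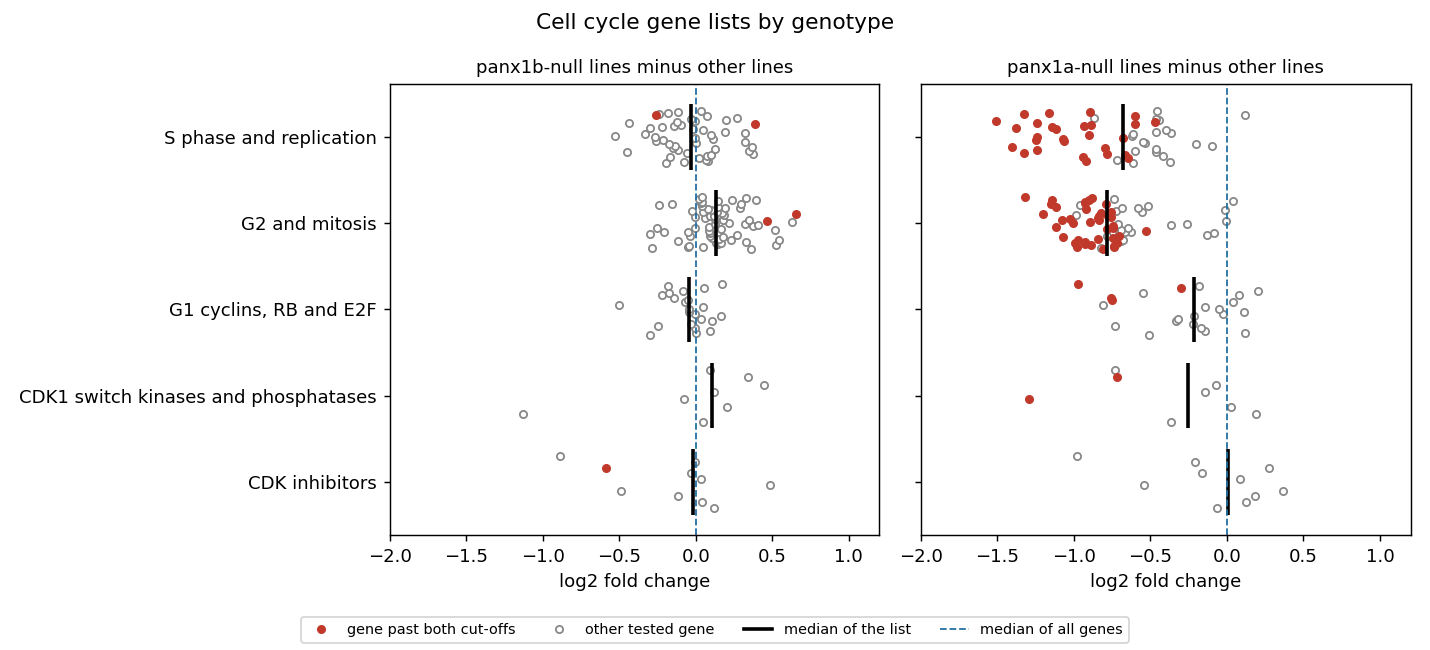
Log2 fold change (x axis) of each tested gene of 5 cell cycle lists (rows) in the panx1b-null lines (left) and the panx1a-null lines (right), each against the other lines, with filled points for genes past both cut-offs, a bar for the median of the list and a dashed line for the median of all genes. The medians of the S phase and the G2 and mitosis lists are −0.03 and 0.13 on the left and −0.68 and −0.78 on the right.

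**Figure D5:**
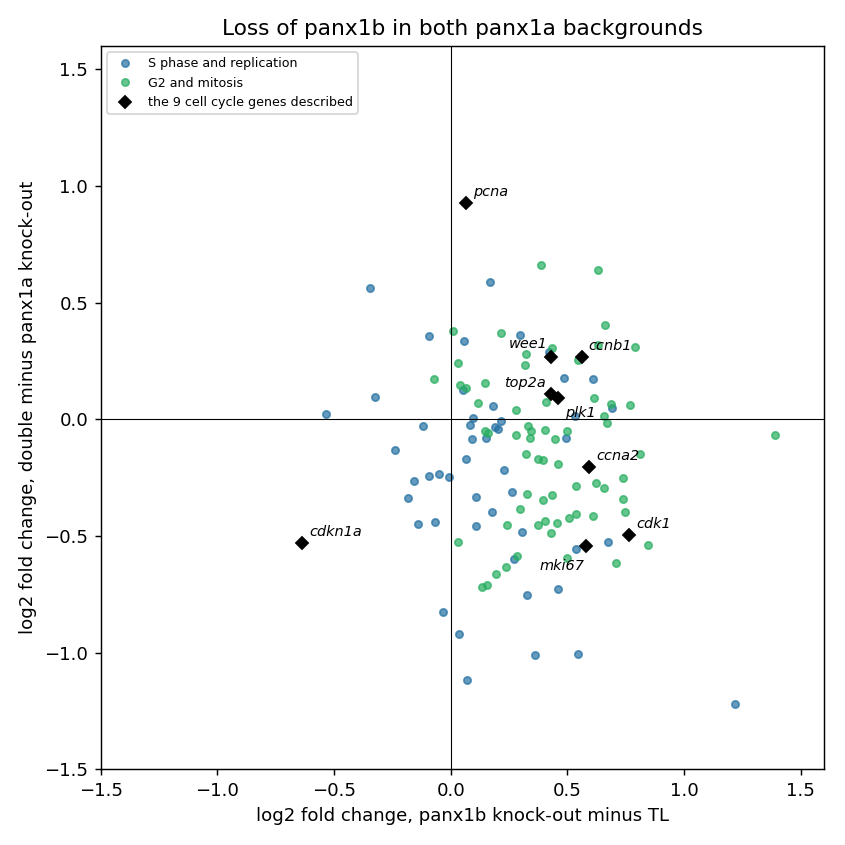
Log2 fold change in panx1b-/- against TL (x axis) and in DKO against panx1a-/- (y axis), which share no library, for genes of the S phase and the G2 and mitosis lists and the 9 cell cycle genes (black). cdkn1a lies at −0.64 and −0.53, pcna at 0.06 and 0.92, and cdk1 at 0.76 and −0.49.

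Clock genes also changed in these lines. Of 41 clock reference genes, 12 rose and 19 fell in the panx1b-null lines, and in the panx1a-null lines 6 rose and 0 fell (16 higher and 1 lower at an unadjusted p-value under 0.05, 9 and 0 in DESeq2). In the panx1b-null lines 29.3% rose and 46.3% fell, beside 3.47% and 5.21% of all genes tested. In the panx1a-null lines 14.6% rose, beside 4.44% of all genes tested. The 3 with the largest changes in the panx1b-null lines were PER1 (ENSDARG00000056885, −1.70), cipca (−1.48) and dbpb (−1.13), a repressor of the clock, an inhibitor of CLOCK and a transcription factor of its output. Over these lines cdkn1a fell with them, while wee1, another gene with clock control, had 0.34. Whether the timing of the clock has a part in the values of cdkn1a was not tested.

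Dividing cells of particular tissues were followed by marker lists beside the proliferation genes. Summed CPM of 21 neural and retinal progenitor markers were 501 to 540 in DKO, 470 to 491 in panx1b-/-, 428 to 491 in panx1a-/- and 463 to 497 in TL. Of the 21, INSM1 (ENSDARG00000053301) and SOX2 rose in the panx1b-null lines (0 fell, with 13 higher and 0 lower at an unadjusted p-value under 0.05, 3 and 0 in DESeq2), with 19 of 21 positive and a median of 0.27. INSM1 and SOX2 were 9.52% of the list, beside 3.47% of all genes tested. By background, both were called in DKO against panx1a-/- (0.66 and 0.36), where 2.58% of all genes tested rose. Neither was called in panx1b-/- against TL (0.38 and 0.24). In the panx1a-null lines 0 of the 21 were called (1 higher and 5 lower at an unadjusted p-value under 0.05, 0 in DESeq2). There 9 had positive and 12 negative values, with a median of −0.10. Summed lymphoid and thymus markers were 31.5 to 47.1 CPM in DKO, 43.4 to 54.7 in panx1b-/-, 38.2 to 49.0 in panx1a-/- and 24.3 to 30.2 in TL, with cd8a at 0 in at least 1 library of each line. In panx1b-/- against TL 3 of 9 of these rose, RAG1 (1.29), RAG2 (1.16) and TCF7 (0.59), beside the positive values of the proliferation genes, and their part in those was not tested. The 3 were 33.3% of the list, beside 2.8% of all genes tested in that comparison. In DKO against panx1a-/- 0 of the 9 markers were called and 7 had negative values (median −0.47). The difference between backgrounds was negative for all 9 markers (median −1.10). Of these, 1 was called lower (11.1%), where 670 of the 24261 genes tested were called lower. In the panx1b-null lines 0 of the 9 markers were called (median 0.25).

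Summed erythroid and blood progenitor markers were 72.0 to 74.5 CPM in DKO, 85.2 to 93.2 in panx1b-/-, 63.6 to 72.8 in panx1a-/- and 74.0 to 79.5 in TL. Of 11, hemgn and EPOR rose in the panx1b-null lines, where 8 of the 11 had positive and 3 negative values (median 0.09). MYB (−0.65) and tfr1a (−0.94), the transferrin receptor of erythroid cells, fell in the panx1a-null lines. There 5 of the 11 had positive and 6 negative values (median −0.10). Each pair was 18.2% of the list, beside 3.47% of all genes that rose and 6.29% that fell in the same comparisons. EPOR had 1.08 in panx1b-/- against TL and 0.10 in DKO against panx1a-/-, and hemgn had 0.39 and 0.80. Germ cell markers summed to 8.45 to 10.8 CPM in DKO, 10.5 to 12.6 in panx1b-/-, 16.6 to 23.2 in panx1a-/- and 11.5 to 14.3 in TL, and 3 of 11 (TDRD1, DDX4 and PIWIL1) fell in the panx1b-null lines. That was 27.3% of the list, beside 5.21% of all genes tested. By background, 0 of 12 were called in panx1b-/- against TL, where 5.96% of all genes tested were. In DKO against panx1a-/- 3 of 12 fell (25%, beside 3.76% of all genes tested there). Of 21 tissue markers of the whole larva, the liver and gut genes apoa2, FABP2 and fabp10a rose in the panx1b-null lines (14.3%, beside 3.47% of all genes tested). There 11 of the 21 had positive and 10 negative values, from −1.14 to 0.58. None of these 3 genes passed both cut-offs in panx1b-/- against TL, and of the 3 only apoa2 did in DKO against panx1a-/-. The part of these cell types in the results above was not tested.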

How the data were processed

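The authors deposited raw counts for each of 12 libraries, 1 whole number for each of 31261 Ensembl genes, without normalization. The submitters' processing notes list bcl2fastq 2.17, FastQC 0.11.2, Trim Galore 0.4.4, TopHat2 2.0.11, HTSeq 0.6.1p2 and the build danRer11. The paper describes transcript counts from RSEM tested with DESeq2, which were not used here. Library strand was kept by the kit, and the strand setting of the counting was not given in the sources used here.

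edgeR 4.0.16 in R 4.3.3 was used on the counts, with TMM normalization and its quasi-likelihood F-test, for genes counted at least 1 time in each library entering a fit. The factorial comparisons used all 12 libraries with line as the factor, and the others the 6 libraries of 2 lines. The SE of a log2 fold change is its size over the square root of F. Gene p-values were adjusted over all genes of a fit. Alternatives were other normalizations, other minimum counts, DESeq2 1.42.0, a fit blocked by replicate number, the adjusted p-value without the second cut-off, other sets of libraries in the fit, and each library left out.

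The genes and lists were chosen with earlier results of these data known. Named in full were the members, and of each list at most 5 in each direction (3 clock genes) with the largest change among those called in the panx1b-null lines and a mean of at least 1 CPM, and the 5 genes most like cdk1. Other names were chosen after their values were seen. One further gene list is not reported here. Symbols were matched to 28223 of the identifiers. Sequences, promoter motifs, gene lengths and cdkn1d were not analysed here, and levels were not compared between genes. Figures were drawn with matplotlib.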

Additional observations from a re-analysis of the deposited data

Results flagged for a closer look

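For 8 of the 156 genes tested in the 5 cell cycle lists (5.13%) the effect of panx1b loss differed between the panx1a backgrounds, tested as the effect in DKO against panx1a-/- less that in panx1b-/- against TL in one edgeR fit, where 5.33% of the 24261 genes tested passed both cut-offs, so that the share in the lists was near that of all genes. They were named after their values were seen. Of the 8, 5 had negative differences. RRM2, a subunit of ribonucleotide reductase, had a difference of −2.43 on the log2 scale (adjusted p = 0.0157), with −1.22 in DKO against panx1a-/- and 1.22 in panx1b-/- against TL. Its level was low, with means of 0.455 CPM in DKO and 1.47 CPM over the 12 libraries. TK1, a thymidine kinase, had −1.54 (adjusted p = 0.0186), with −1.01 and 0.55. The kinetochore gene ndc80 had −1.45 (adjusted p = 0.00814), with −0.07 and 1.39, and it was called in panx1b-/- against TL and not in DKO against panx1a-/-. KIF22, a chromokinesin, had −1.31 (adjusted p = 0.00166), with −0.61 and 0.71. The G1 cyclin CCND2 (ENSDARG00000070408) had −0.78 (adjusted p = 0.00718), with −0.44 and 0.35. None of these 5 genes was called in DKO against panx1a-/-, and TK1 and CCND2 were not called in panx1b-/- against TL either.

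The other 3 had positive differences, as pcna did short of the cut-offs. The Myc genes mych and MYC (ENSDARG00000007241) had differences of 1.39 (adjusted p = 5.07e-04) and 0.81 (adjusted p = 0.0108), with mych at 0.47 in DKO against panx1a-/- and −0.91 in panx1b-/- against TL. The helicase gene MCM7 had 0.57 (adjusted p = 0.00809), with 0.02 and −0.54. With a library left out, the S phase genes called lower for the difference, 2 with all 12 libraries, numbered 0 without TL replicate 2 or without replicate 1 or 3 of panx1a-/-, panx1b-/- or DKO, 1 without TL replicate 1 or 3 or DKO replicate 2, 3 without panx1b-/- replicate 2 and 5 without panx1a-/- replicate 2. The G2 and mitosis genes called lower, also 2, numbered 1 without panx1a-/- replicate 1 or 3 or DKO replicate 1 and 4 without panx1a-/- replicate 2. The S phase genes called higher, 1 with all libraries, numbered 0 without panx1a-/- replicate 3, panx1b-/- replicate 2 or DKO replicate 3 and 2 without panx1a-/- replicate 1.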

How the results depend on the processing

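Of 819 values of the 9 genes under other settings, 758 kept their direction and their side of the cut-offs, 28 lost a call, 19 gained one and 14 changed sign, all 14 in fits with a library left out and all in values that were not called. Without a library, the range was −0.095 to 0.15 for mki67 and −0.055 to 0.33 for cdk1 in the panx1b-null lines, −0.10 to 0.21 for pcna against TL, and −0.12 to 0.38 for top2a and −0.45 to 0.029 for ccna2 in DKO against panx1a-/-. For the difference between backgrounds it was −0.41 to 0.19 for wee1, −0.076 to 0.37 for cdkn1a and −0.54 to 0.18 for ccnb1.

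At the adjusted p-value alone, in place of both cut-offs, more genes were called, 1759 higher and 2376 lower (842 and 1265 with both) in the panx1b-null lines, 1285 and 1459 (696 and 786) in panx1b-/- against TL, 1382 and 1758 (645 and 938) in DKO against panx1a-/-, 1076 and 1173 (622 and 670) for the difference, and 2146 and 2759 (1078 and 1527) in the panx1a-null lines. With no term for the line, the panx1b-null lines had 322 genes higher and 536 lower and 0 of the 9 higher. With all 12 libraries in one fit, 0 of the 9 fell in panx1b-/- against TL. For the difference between backgrounds, 1 of the 9 (pcna) was called higher under DESeq2, without a minimum count, with the replicate block and at the adjusted p-value alone, the cause not tested.

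The replicate number as a block called 1 of the 9 (mki67, adjusted p = 0.0117) higher in panx1b-/- against TL. No 2 lines had all 3 same-number correlations of deviations over 0.1. They were 0.267, 0.0489 and −0.0124 for panx1b-/- and TL, and −0.0565, −0.173 and 0.0922 for DKO and panx1a-/-. For panx1b-/- and panx1a-/- they were 0.0698, 0.279 and 0.14, and for DKO and panx1b-/- 0.303, −0.0436 and 0.216. Unlike numbers were not compared, so whether the numbers pair the pools was not tested. With each library left out, the 9 genes called higher and lower ranged from 0 to 1 and 1 to 1 in the panx1b-null lines, 0 to 2 and 0 to 1 against TL, 1 to 1 and 0 to 1 in DKO against panx1a-/-, 0 to 1 and 0 to 0 for the difference, and 0 to 0 and 4 to 8 in the panx1a-null lines. All genes called ranged from 654 to 992 and 901 to 1398, 409 to 601 and 466 to 1031, 381 to 943 and 499 to 1029, 488 to 703 and 493 to 765, and 891 to 1085 and 1188 to 1605 in the same order. Depth was least for ccnb1, with 38 to 158 counts a library.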
